A study of Mus musculus with 16 samples.

Results

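The MEF2 decamer, the 10-base sequence that MEF2 transcription factors bind, was found within 100 bp of the summit of 137 open regions that lay away from transcript starts and held no other motif of interest, and these 137 regions are described here. They were taken from 26213 union regions, made by merging the 14710 strongest ATAC-seq peaks of each of 14 libraries. A region was kept when its summit was over 1 kb from any annotated transcript start, when the decamer was present without mismatch, and when neither the E-box CAGCTG, the hexamer preferred by MyoD1, nor the AP-1 heptamer (TGACTCA or TGAGTCA) lay in the same 201 bp window. Of the union regions 15878 were distal in this sense and 379 held the decamer, 310 of them distal. Accessibility entered the choice, because a region had to be among the strongest peaks of at least 1 of 8 GM or 6 DM libraries, and the summit was that of its strongest peak. The medium and dox treatment of a library were not used. For comparison, 6745 distal regions held none of the 3 motifs, 2206 held the E-box without the AP-1 heptamer, and 5372 held the AP-1 heptamer without the E-box, each with or without the decamer. The comparisons of dox and of medium share libraries, so they are not independent.

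MEF2 proteins are MADS-box factors that act beside MyoD1 and its relatives when myoblasts leave the cell cycle and become muscle fibers. They bind an AT-rich decamer that reads C or T, then TA, 4 bases that are each A or T, then TA, and A or G. Class IIa histone deacetylases such as Hdac4 bind MEF2 proteins and hold their targets silent until differentiation signals move the deacetylase out of the nucleus. AP-1 factors are prominent in proliferating, serum-fed cells, while E-boxes are bound by MyoD1, Myf5 and myogenin.

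ATAC-seq, in which a transposase cuts and tags accessible DNA, was performed in C2C12 iMyoD1, a polyclonal mouse myoblast line that carried a doxycycline-inducible Halo-MyoD1 transgene beside its endogenous Myod1 gene. All 4 groups carried this transgene, and each had 4 biological replicates. Doxycycline (called +dox) or its vehicle (called no dox) was given for 24 h, either in serum-rich growth medium (GM) after seeding 75000 cells per well, or during 24 h of serum starvation (DM) after seeding 300000, so medium and seeding density changed together and cannot be told apart. Replicate 1 of both DM groups was left out as a quality outlier, which left 3 DM libraries in each arm.

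The cells had the open chromatin of myoblasts. The Myod1 start had a peak in all 14 kept libraries and the start of the acetylcholine receptor gene Chrna1 in 14, that of Des in 13, and those of the other 5 myoblast markers examined in 3 to 10. Of the later muscle genes, Ckm had a peak in 9 libraries, and Myog, Mymk and Acta1 in 0. Of 7 markers of other cell types, Tubb3 had a peak in 11 libraries and the other 6 in 0. The lists held 14710 to 58587 peaks per kept library, and the genome-wide background recovered from them ranged from 0.339 to 1.13 fragments per base.

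Grouped by end bases, only decamers that start with C and end with G were more frequent at distal summits than 1 kb away. This C-to-G form was present at 0.642% of the 15878 distal summits (102 windows of 201 bp). In windows of the same length placed 1 kb to either side it was at 0.359% (114 windows), a ratio of 1.79 that was not tested. Decamers with mixed ends went the other way (0.838% at summits, 1.35% away, ratio 0.620), and so did those that start with T and end with A (0.510% and 1.75%, ratio 0.291). All forms together were at 1.95% of distal summits, against 3.39% of the windows 1 kb away and 0.668% of summits within 1 kb of a transcript start. Summits were also poorer in A and T than their surroundings, at 48.8% to 49.1% in the central 100 bp and 54.5% at 950 to 1000 bp upstream, and the part of base composition in these ratios was not tested. CAGCTG (22.8% of distal summits, 9.91% away) and the AP-1 heptamer (42.8% and 3.85%) were both more frequent at summits by larger ratios.

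**Figure D1:**
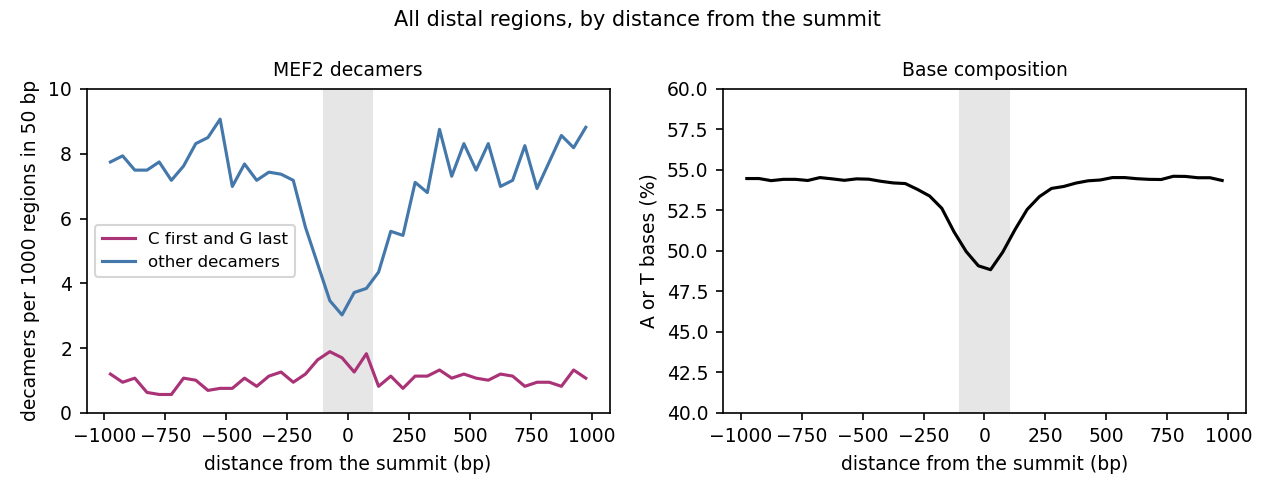
Left, MEF2 decamers per 1000 distal regions in 50 bp bins (y axis) against distance from the summit in bp (x axis), for decamers that start with C and end with G and for all others; right, the percent of A or T bases in the same bins. The gray band is the 100 bp on each side in which the decamer was required, and within it the C-to-G form sits at 1.26 to 1.89 per 1000 regions while the other forms dip to 3.02 to 3.84. Outside the band the C-to-G form ranges from 0.567 to 1.64, so the ranges overlap, and its lowest value in the band is in the bin 0 to 50 bp from the summit.

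Of the 137 regions, 46 held the C-to-G form. The 5 most frequent decamers, each counted together with its reverse complement, were TTAAAAATAA in 20 regions, CTAAAAATAA in 15, CTATAAATAG in 14, and CTAAAAATAG and CTATTTTTAA in 13 each. Their placement around summits was unequal. CTATAAATAG was at 0.158% of distal summits and 0.0441% of windows 1 kb away, a ratio of 3.57, whereas TTAAAAATAA was at 0.258% and 0.649%, a ratio of 0.398. A single decamer was found in 135 regions and 2 in the other 2, and in 80 regions the decamer centre was within 50 bp of the summit. Of the 46 C-to-G regions, 20 were among these 80.

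The sequences of 12 regions are shown. They were picked by a call between groups, by a nearest gene in the muscle lists described below, or because they had the strongest peaks. Each is 110 bases of the plus strand of GRCm38 (mm10), written 5′ to 3′, with the decamer in capitals. The first 7 regions differed between groups.
Sgcd, intron, chr11:47377518-47377627: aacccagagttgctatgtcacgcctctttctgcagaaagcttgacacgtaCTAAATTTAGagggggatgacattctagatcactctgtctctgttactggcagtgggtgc
Mecom, intron, chr3:30091996-30092105: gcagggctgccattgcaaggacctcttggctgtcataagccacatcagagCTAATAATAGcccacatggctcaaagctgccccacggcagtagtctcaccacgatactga
Haao, intergenic, chr17:83983067-83983176: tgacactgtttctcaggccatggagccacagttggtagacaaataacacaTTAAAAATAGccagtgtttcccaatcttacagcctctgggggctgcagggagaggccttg
Nenf, intron of Gm37168, chr1:191277852-191277961: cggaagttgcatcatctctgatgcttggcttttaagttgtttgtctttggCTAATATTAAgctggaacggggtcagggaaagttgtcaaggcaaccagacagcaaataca
Dot1l, intron, chr10:80774686-80774795: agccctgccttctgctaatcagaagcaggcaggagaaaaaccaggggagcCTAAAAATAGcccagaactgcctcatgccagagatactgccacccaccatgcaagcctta
Pwwp2b, intergenic, chr7:139273583-139273692: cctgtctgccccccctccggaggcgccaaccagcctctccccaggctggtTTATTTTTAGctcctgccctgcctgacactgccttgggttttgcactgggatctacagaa
Dab2ip, intron, chr2:35588498-35588607: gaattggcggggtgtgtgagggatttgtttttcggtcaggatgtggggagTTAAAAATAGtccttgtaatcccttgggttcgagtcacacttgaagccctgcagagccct
Hdac4, intron, chr1:92075548-92075657: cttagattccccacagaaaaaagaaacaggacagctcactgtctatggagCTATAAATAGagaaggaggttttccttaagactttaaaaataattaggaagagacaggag
Mylk4, intergenic, chr13:32684076-32684185: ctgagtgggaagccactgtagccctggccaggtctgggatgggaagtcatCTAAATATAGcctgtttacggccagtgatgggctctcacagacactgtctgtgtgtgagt
BC067074, intron of 4921509O07Rik, chr13:113454728-113454837: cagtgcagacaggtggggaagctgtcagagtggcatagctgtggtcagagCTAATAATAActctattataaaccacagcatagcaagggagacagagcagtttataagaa
Hip1, intron, chr5:135522374-135522483: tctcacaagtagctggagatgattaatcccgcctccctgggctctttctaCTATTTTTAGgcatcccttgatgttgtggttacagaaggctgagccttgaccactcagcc
Utrn, intron, chr10:12694960-12695069: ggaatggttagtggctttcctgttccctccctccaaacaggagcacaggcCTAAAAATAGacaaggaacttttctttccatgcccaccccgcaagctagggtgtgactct
Regions are named by the protein-coding gene with the nearest transcript start in GENCODE M21, which is a label and not an assigned target.

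The 137 regions were placed in the genome much as other distal regions were. In introns lay 81 of them (59.1%, against 54.0% of all distal regions), 52 were intergenic (38.0% against 41.5%), 2 in exons and 2 in UTRs. Their median width was 535 bp against 540 bp, and their median GC content 46.3% against 50.3%. The nearest start of a protein-coding gene was at a median of 22590 bp, and over 50 kb away for 38 regions (27.7% against 26.6%). Other motifs differed to varying extents from the distal regions without the 3 motifs, and these shares were not tested. The hexamer AGATAA or its complement was in 12.4% of the windows against 8.47%, and CAGGTG in 5.84% against 7.93%. The TEAD core CATTCC or its complement was in 21.9% of the windows against 24.5%, the RUNX core TGTGGT or its complement in 36.5% against 35.1%, and any E-box of the form CANNTG in 67.2% against 61.7%.

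The regions were strong peaks in some libraries and weak or absent in others. 16 regions (11.7%) were among the strongest peaks of all 14 libraries, compared with 13.0% of the distal regions without the 3 motifs, and 35 (25.6%, against 25.1%) were among those of a single library. Of these 35 regions, 13 belonged to GM no dox replicate 1, whose list was the shortest and entered whole. With all deposited peaks counted, 41 of the 137 regions had a peak in every kept library. Where a region was among the strongest peaks, its peak ranked at a median percentile of 39.2 in that list (100 is the strongest), against 41.1 at the distal regions without the 3 motifs and 43.2 at those with the E-box.

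**Figure D2:**
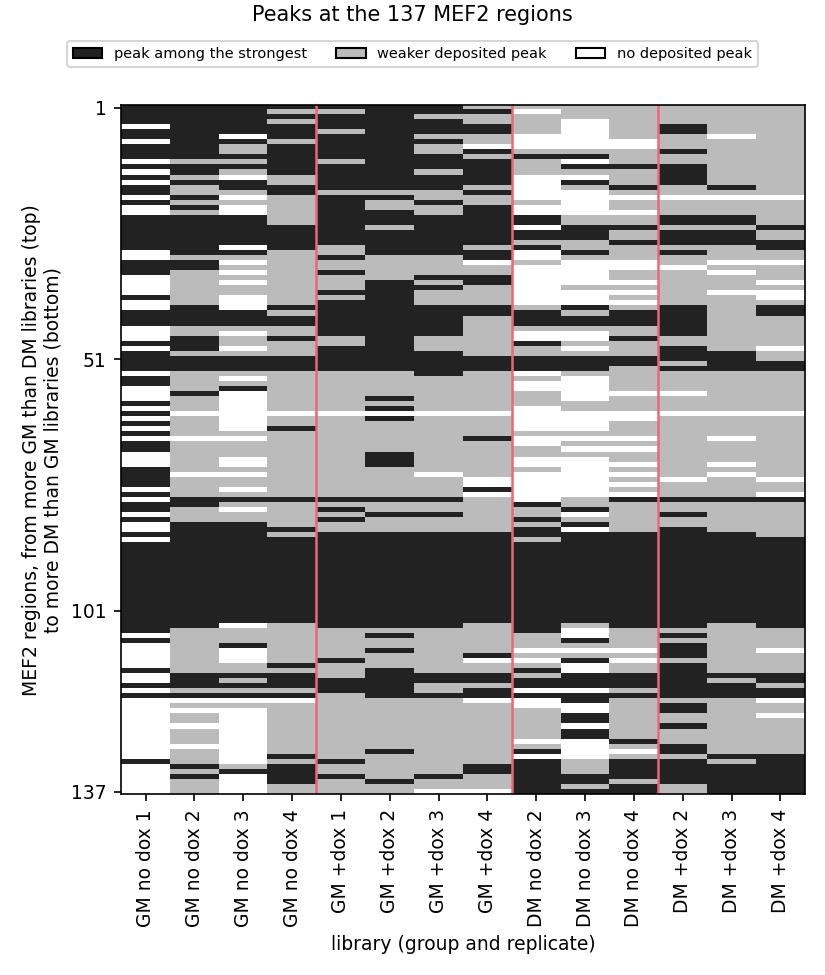
Each row is 1 of the 137 regions and each column 1 of the 14 kept libraries, grouped by condition between the red lines; black marks a peak among the 14710 strongest of that library, gray a weaker deposited peak and white no deposited peak. Rows run from regions found in a larger share of GM than DM libraries (top) to the reverse (bottom), and with 8 GM against 6 DM columns 48 regions (35.0%) were black only in GM and 12 (8.76%) only in DM, next to 23.9% and 13.9% of all distal regions.

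The open share of the MEF2 regions was lower on average in DM than in GM. The open share of a library, meaning the percent of the 137 regions with a peak among its 14710 strongest, was 53.3%, 48.2%, 37.2% and 40.1% in GM no dox replicates 1 to 4 and 48.9%, 59.1%, 43.1% and 39.4% in GM +dox. It was 34.3%, 34.3% and 29.9% in DM no dox replicates 2 to 4 and 48.2%, 29.2% and 27.7% in DM +dox. Without dox the media did not overlap, the highest DM library being below the lowest GM library, whereas with dox DM replicate 2 lay within the GM range. The group means were 44.7% ± 7.36 (SD, n = 4), 47.6% ± 8.60 (n = 4), 32.8% ± 2.53 (n = 3) and 35.0% ± 11.4 (n = 3) in the same order. With labels permuted within each dox arm, the DM minus GM difference was −12.2 percentage points (two-sided exact permutation test over 14 libraries, p = 0.0180, adjusted p = 0.108 over 6 tests), so the difference did not pass the adjusted threshold of 0.05. With 1 library left out at a time the difference was −15.5 to −10.3 points (exact permutation test, adjusted p from 0.0229 to 0.206). It passed only without DM +dox replicate 2, at −15.5 points.

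Within single arms the differentiation difference was −11.9 points without dox (exact permutation p = 0.0571, the smallest that 3 against 4 libraries allow) and −12.6 points with dox (exact permutation p = 0.171). Libraries with replicate numbers 1 and 2 had a higher mean open share than numbers 3 and 4 in every group. The means were for instance 50.7% against 38.7% in GM no dox and 48.2% (1 library) against 28.5% in DM +dox. In DM no dox they were 34.3% (1 library) against 32.1%, and there replicates 2 and 3 had the same share. The kept DM groups hold only replicate 2 of the first pair of numbers. Within numbers 1 and 2 the differentiation difference over both arms was −11.1 points, and within numbers 3 and 4 it was −9.67 points.

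The E-box regions had higher means in DM than in GM, and the difference between both sets passed its test. The distal E-box regions had mean open shares of 39.9% ± 3.49 in GM no dox (n = 4), 45.6% ± 3.63 in GM +dox (n = 4), 45.1% ± 2.15 in DM no dox (n = 3) and 52.2% ± 6.88 in DM +dox (n = 3). The open share of the MEF2 regions was 4.85 ± 4.62 points above that of the E-box regions in GM no dox and 2.01 ± 6.71 above in GM +dox, but differed from it by −12.2 ± 3.33 points in DM no dox and by −17.2 ± 5.71 in DM +dox. All 6 DM libraries had a lower value of this difference, −22.9 to −8.62, than all 8 GM libraries, −5.42 to 10.8. DM minus GM was −18.1 points (two-sided exact permutation test, p = 0.00163, the smallest possible with 1225 labellings, adjusted p = 0.00653 over 4 tests). It was −19.4 points within replicate numbers 1 and 2 and −15.7 within 3 and 4, and with the replicate number as a block −17.8 (exact sign-flip test over 6 pairs, p = 0.0312, the smallest possible, adjusted p = 0.0625).

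Against the other comparison sets the difference was smaller. Relative to the 6745 distal regions without the 3 motifs, whose own open share changed by −4.90 points in DM, the MEF2 regions differed by −7.32 points in DM (exact permutation test, p = 0.0212, adjusted p = 0.127). Relative to the AP-1 regions, which changed by −5.72 points in DM, the value was −6.51 points (exact permutation test, p = 0.0539, adjusted p = 0.108). With 1 library left out at a time it was −8.94 to −4.65 (exact permutation test, adjusted p from 0.0152 to 0.274). It passed only without DM +dox replicate 2, at −8.94. With every deposited peak counted, in lists of unequal length, both differences passed: −5.71 points relative to the regions without motifs (exact permutation test, adjusted p = 0.00980) and −5.81 relative to AP-1 (adjusted p = 0.0218). Region by region, 87 of the 137 MEF2 regions (63.5%) were found in a smaller share of DM than GM libraries and 34 (24.8%) in a larger one. The same shares were 51.9% and 34.2% for distal regions without the 3 motifs, 49.5% and 32.7% for AP-1 regions, and 35.4% and 49.3% for E-box regions.

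**Figure D3:**
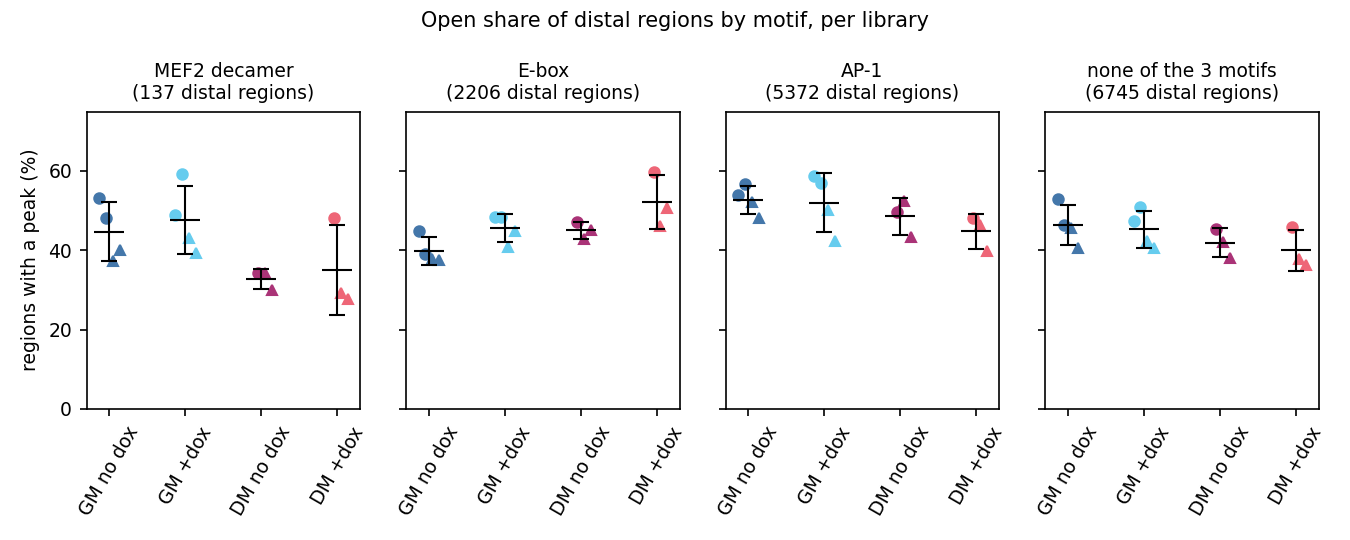
Percent of distal regions with a peak among the 14710 strongest (y axis, from 0) in each kept library (points; circles are replicates 1 and 2, triangles 3 and 4), by group, with the mean and SD as bars. The MEF2 regions sit between 27.7% and 48.2% in DM and 37.2% and 59.1% in GM, while the E-box regions have means from 39.9% in GM no dox to 52.2% in DM +dox.

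Dox treatment moved the MEF2 regions little as a whole. In GM the open share of +dox libraries exceeded that of no dox libraries by 2.92 points, and in DM by 2.19 points (exact permutation tests, p = 0.629 and 1). Over both media the difference was 2.55 points (p = 0.583 by the same exact test, adjusted p = 0.754). The sign in DM rested on replicate 2 of DM +dox, without which the value was −4.38, and in GM on replicate 2 of GM +dox, without which it was −0.912. Relative to the distal regions without the 3 motifs the change over both media was 4.03 points (exact permutation p = 0.139, adjusted p = 0.343), and with all deposited peaks 5.78 points (adjusted p = 0.00980). The lists then differed in length, with 36531 to 58587 peaks with dox and 14710 to 49300 without. Mean MEF2 open shares were then 97.5% in GM +dox and 93.7% in DM +dox, close to the maximum. They were 77.7% in GM no dox and 68.9% in DM no dox, and the part of list length was not tested. The dox effect in DM minus that in GM was −0.730 points (exact permutation p = 0.957), so no difference between media was detectable with these libraries. Found in a larger share of +dox than no dox libraries were 54 regions (39.4%, against 32.4% of distal regions without the 3 motifs) and in a smaller share 49 (35.8% against 41.1%). The E-box regions, in contrast, had a larger share in 45.9% and a smaller one in 26.0%.

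Over both media the dox difference in open share was 10.7 points at the 46 C-to-G decamer regions and −1.56 points at the 91 regions with other decamers. Their open share averaged 47.3% ± 8.40 in GM no dox (n = 4), 54.9% ± 12.5 in GM +dox (n = 4), 27.5% ± 6.28 in DM no dox (n = 3) and 41.3% ± 11.3 in DM +dox (n = 3). The regions with other decamers had 43.4%, 44.0%, 35.5% and 31.9% in that order. Tests of the C-to-G regions as a set of their own were added after the data were seen and adjusted among themselves. Their comparison set was the distal regions without the C-to-G form, CAGCTG and the AP-1 heptamer, which includes the 91 regions with other decamers. Relative to that set, the 46 C-to-G regions were 12.2 points higher with dox over both media (exact permutation p = 0.0100, adjusted p = 0.0490). In DM they differed by −11.7 points (exact permutation p = 0.0163, adjusted p = 0.0490). Both calls were lost in lists of 7355 peaks (3.84 and −2.86 points, exact permutation, adjusted p = 0.400 for each) and with the replicate block (11.7 and −11.3 points, adjusted p = 0.0938). When single libraries were left out in turn, both calls stood only without GM +dox replicate 3 or 4, and the differences ranged from 10.2 to 13.6 and from −13.6 to −10.2 points. A test of the C-to-G regions against the other MEF2 regions was not made.

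Decamers that shared their window with the other motifs are no members of the set but were measured alike. At the 61 distal regions with both the decamer and CAGCTG the mean open share was 39.3% in GM no dox, 52.5% in GM +dox, 39.3% in DM no dox and 42.6% in DM +dox. At the 134 with the decamer and the AP-1 heptamer it was 46.6%, 50.9%, 38.3% and 34.6%. The DM minus GM differences over both dox arms were −4.92 and −12.3 points, next to −12.2 for the decamer alone. By arm they were 0 without dox and −9.84 with dox for CAGCTG, and −8.33 and −16.4 for the AP-1 heptamer. The 3 DM +dox libraries were far apart at the 61 regions, at 65.6%, 32.8% and 29.5%. Regions that held all 3 motifs are in both sets.

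The strength of the peaks differed in the same directions as the open share, but here the dox difference was the larger and neither passed. Over the 41 MEF2 regions with a deposited peak in every kept library, the median percentile of −log10 p within the whole list averaged 76.0 ± 8.27 in GM no dox (n = 4), 83.4 ± 4.62 in GM +dox (n = 4), 68.2 ± 6.32 in DM no dox (n = 3) and 79.8 ± 8.21 in DM +dox (n = 3). It was 9.49 percentile points higher with dox (exact permutation p = 0.0229, adjusted p = 0.137) and differed by −5.69 in DM ( exact permutation p = 0.152, adjusted p = 0.257). This percentile rises with the length of a list, and the +dox lists held 36531 to 58587 peaks against 14710 to 49300 without dox. Within lists of equal length, at the 16 regions found in all of them, the values were 0.236 for dox and −10.3 for DM, and neither passed (exact permutation, adjusted p = 1 and 0.514).

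Few MEF2 regions were present in every library of 1 group and in none of another. Between GM +dox and GM no dox there were 0 such regions, where 0.287% of all union regions with a peak in either group were all-or-none. Between DM +dox and DM no dox there was 1, higher with dox (background 1.61%, both directions). Between DM no dox and GM no dox there were 4 of the 110 MEF2 regions with a peak in either group, 1 higher and 3 lower in DM (background 2.03%). Between DM +dox and GM +dox there were 0 (background 2.21%). These counts of 0 to 4 are too small to set apart from the background.

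The 3 all-or-none regions lower in DM without dox were near Sgcd, Mecom and Haao. Sgcd encodes delta-sarcoglycan of the dystrophin-associated complex at the muscle membrane, Mecom a zinc-finger transcription factor, and Haao an enzyme of tryptophan breakdown. At the Sgcd region (671 bp, summit 1855 bp downstream of the start, C-to-G decamer CTAAATTTAG) fold enrichment was 5.04, 12.9, 8.21 and 11.2 in GM no dox replicates 1 to 4 and 12.2, 13.7, 9.74 and 8.73 in GM +dox. It was 6.39, 5.44 and 5.78 in DM no dox and 10.6, 7.52 and 8.97 in DM +dox. Without dox the DM libraries were below 3 of the 4 GM libraries, and replicate 1 of GM no dox was below all of them, while with dox the ranges overlapped. After centring each library on its median, the Sgcd region differed between DM and GM by −0.68 ± 0.17 (log2, SE) without dox and by −0.51 ± 0.13 with dox, and neither passed over all regions (limma, adjusted p = 0.121 and 0.0983).

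At the Mecom region fold enrichment was 7.74, 14.6, 7.53 and 14.3 in GM no dox and 6.06, 5.93 and 13.7 in DM no dox. The groups overlapped on this scale, although the peak was among the strongest of every GM no dox library and of 0 DM libraries (log2 difference −0.51 ± 0.19 SE without dox, limma, adjusted p = 0.393). A second MEF2 region in Mecom, chosen after its values were seen, was among the strongest peaks of 0 GM libraries and 1 DM library. At Haao the values were 4.79, 11.5, 7.49 and 8.72 in GM no dox and 6.08 and 5.39 in DM no dox replicates 2 and 4, with no deposited peak in replicate 3.

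The all-or-none regions that were higher were near Nenf (in DM without dox) and Dot1l (with dox in DM). Nenf encodes the secreted protein neudesin, and its region, in an intron of the gene Gm37168 and 40250 bp from the Nenf start, had fold enrichments of 11.4, 7.97 and 14.7 in DM no dox and 15.0, 12.1 and 12.7 in DM +dox. In GM no dox only replicates 2 and 4 had a deposited peak, at 5.51 and 4.21, and in GM +dox only replicates 1 and 2, at 3.21 and 5.25. All 6 DM libraries thus exceeded all 8 GM libraries. Dot1l encodes the methyltransferase of histone H3 lysine 79, and its region held a C-to-G decamer. It had 15.4, 12.4 and 15.4 in DM +dox, a single deposited peak at 9.02 (replicate 4) in DM no dox, 11.8, 11.8, 8.17 and 11.5 in GM +dox, and 7.64, 4.23 and 10.7 in GM no dox replicates 2 to 4. These values are not centred, and over all regions tested the median log2 difference with dox was 0.53 in DM and 0.40 in GM without centring. In GM the Dot1l peak was among the strongest of 3 of 4 +dox libraries and of 0 of 4 no dox libraries. Its counts in DM, all 3 libraries with dox and 0 without, were fixed by its choice.

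**Figure D4:**
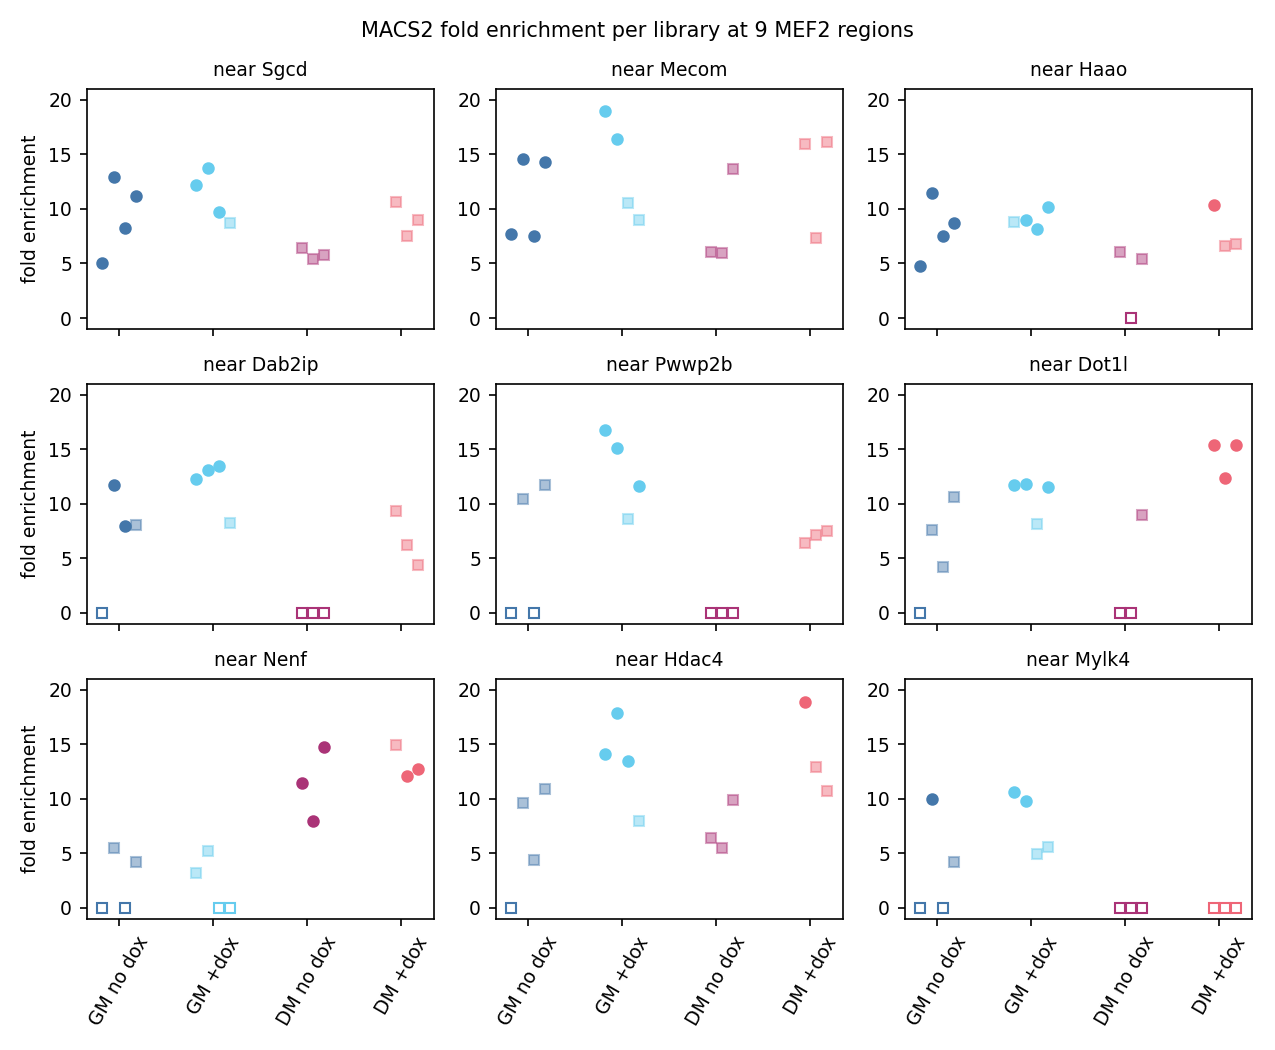
MACS2 fold enrichment (y axis) in each kept library at 9 MEF2 regions named by the nearest gene, by group; filled circles are peaks among the 14710 strongest of their library, pale squares weaker deposited peaks, and open squares at 0 libraries with no deposited peak. The Nenf region is higher in all DM than in all GM libraries, and the Mylk4 region has a peak only in GM.

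Fold enrichment was compared region by region with limma over all union regions that had a deposited peak in every library of both groups. For dox in GM 55 MEF2 regions entered and 0 passed (background 0% of 12492 regions), with 3 (5.45%) at an unadjusted p under 0.05, against 4.96% of all regions tested. For dox in DM 65 entered and 0 passed (background 0% of 17251), with 12 (18.5%) at an unadjusted p under 0.05, against 9.84% of all regions. The replicate numbers paired the libraries in this comparison, and with the number as a block 4 passed (6.15%, against 3.06% of all regions in that fit). Without centring 18 passed (27.7%, against 24.7%). For DM against GM without dox 41 entered and 0 passed (background 0.018% of 11121), with 8 (19.5%) at an unadjusted p under 0.05, against 8.98% of all regions.

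For DM against GM with dox 114 MEF2 regions entered and 2 passed, both lower in DM (background 0.704% of 22719 regions in both directions). At an unadjusted p under 0.05 were 29 (25.4%, against 14.6% of all regions and 1123 of 5293 distal regions without the 3 motifs). Of those 5293 distal regions 66 (1.25%) passed. With the replicate block, which the libraries of this comparison also supported, 11 passed (9.65%, against 4.01% of all regions in that fit). The median log2 difference was −0.15 at the MEF2 regions, −0.08 at distal regions without the 3 motifs, −0.08 at AP-1 regions and 0.01 at E-box regions, and 28.9%, 39.1%, 38.0% and 51.6% of the regions in that order were above 0. Without dox the medians were −0.10, −0.06, −0.07 and −0.01. These are relative to the median of each library. Without centring the median log2 difference at the MEF2 regions turned to 0.07 with dox and was −0.01 without, where that of all regions tested was 0.21 and 0.10. The count stayed at 2 of 117 without GM +dox replicate 4, where 210 of all 23521 regions passed. It was 5 of 116 without DM +dox replicate 2, where 339 of all 22802 regions passed. It was 0 when any of GM +dox replicates 1, 2 or 3 or DM +dox replicates 3 or 4 was left out. In those runs only 0 to 53 of all regions passed.

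**Figure D5:**
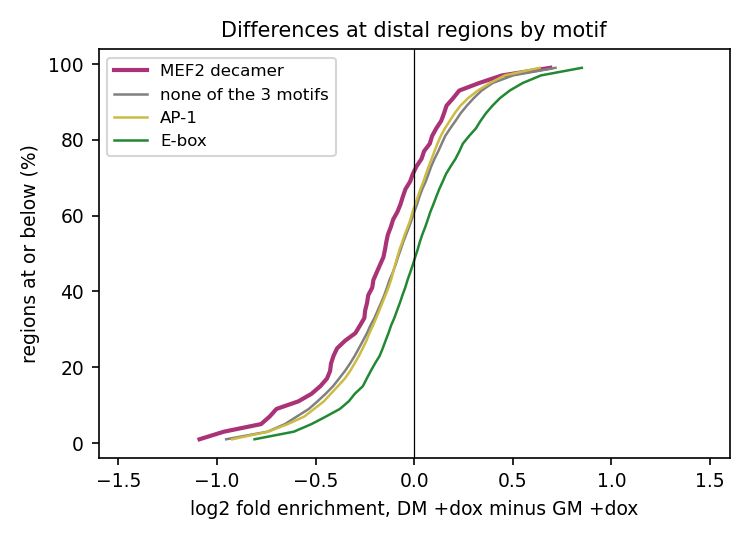
Cumulative percent of distal regions (y axis) at or below a given log2 difference in fold enrichment between DM +dox and GM +dox (x axis; each library centred on its median), by motif. The MEF2 curve lies to the left, with its median at −0.15 (0.07 without centring), and the E-box curve to the right, with its median at 0.01.

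The 2 regions that passed were near Pwwp2b, which encodes a chromatin protein with a PWWP domain, and in an intron of Dab2ip, which encodes a Ras GTPase-activating protein. At the Pwwp2b region fold enrichment was 16.8, 15.1, 8.60 and 11.6 in GM +dox and 6.40, 7.11 and 7.53 in DM +dox, with no overlap (log2 difference −1.07 ± 0.19 SE, limma, adjusted p = 0.0413). In the no dox arm it had a deposited peak in GM replicates 2 and 4, at 10.4 and 11.7, and in no DM library. At the Dab2ip region fold enrichment was 12.3, 13.1, 13.5 and 8.23 in GM +dox and 9.33, 6.19 and 4.37 in DM +dox, so that 1 library of each group crossed (log2 difference −1.09 ± 0.21 SE, limma, adjusted p = 0.0483). Its no dox libraries, which did not enter the fit, had peaks at 11.7, 7.95 and 8.08 in GM replicates 2 to 4 and none in DM.

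Few MEF2 regions had a listed muscle gene as their nearest gene, as was the case for distal regions in general. Of 128 genes in lists of myogenic factors, MEF2 repressors, sarcomere and costamere proteins, calcium and metabolic proteins and known MEF2 targets, 3 were the nearest coding gene of a MEF2 region (2.19% of the 137 regions, against 1.29% of all distal regions). They were Sgcd, Hdac4 and Mylk4. The 19 myogenic factors, the 17 calcium and metabolic genes and the 16 MEF2 targets were nearest to 0 of the 137 regions and to 0.403%, 0.0378% and 0.290% of all distal regions, shares at which a count of 0 is not a result about the MEF2 regions.

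Hdac4 and Mylk4 both held a C-to-G decamer. At the Hdac4 region, in an intron 37791 bp downstream of the start, with CTATAAATAG, fold enrichment was 14.1, 17.9, 13.4 and 7.95 in GM +dox and 18.9, 13.0 and 10.7 in DM +dox. It was 9.59, 4.41 and 10.9 in GM no dox replicates 2 to 4, with no peak in replicate 1, and 6.42, 5.47 and 9.90 in DM no dox. The +dox libraries were higher than the no dox libraries in DM without overlap, but uncentred fold enrichment was higher with dox over all regions tested (median log2 difference 0.53 in DM). The peak was among the strongest of 4 of 7 +dox and 0 of 7 no dox libraries. After centring, the log2 difference in DM of 0.41 ± 0.17 (SE) did not pass (limma, adjusted p = 0.471). Mylk4 encodes a myosin light chain kinase, and the region lay 92322 bp downstream of its start. Fold enrichment there was 10.6, 9.80, 4.91 and 5.62 in GM +dox and 10 and 4.19 in GM no dox replicates 2 and 4. A deposited peak was found in 6 of 8 GM libraries and in 0 of 6 DM libraries.

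The 6 MEF2 regions with the highest mean percentile, between 92.4 and 98.0, lay near BC067074, Hip1, Utrn, Ercc6l2, Palm3 and Wdr1, and each was among the 14710 strongest peaks of all 14 libraries, which their choice by this mean, with a missing peak counted as 0, largely fixed. The Utrn region lies in an intron of the gene for utrophin, the relative of dystrophin that links actin to the membrane, and ranked between percentiles 92.8 and 99.3. Its fold enrichment ranged from 10.6 to 20.4 in GM no dox, 16.1 to 22.7 in GM +dox, 13.6 to 17.8 in DM no dox and 18.7 to 22.3 in DM +dox, and its centred log2 differences were between −0.14 and 0.08 in the 4 comparisons (limma, adjusted p from 0.657 to 0.983). At Hip1, whose product links clathrin to actin, they were between −0.17 and 0.02 (limma, adjusted p from 0.718 to 0.996).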

How the data were processed

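The authors processed the reads with nf-core/atacseq against mm10, removed a blacklist and ran MACS2 on every library separately to obtain narrow peaks. DM replicates 1 were left out as in their methods. The deposited lists hold, per peak, a score (not used here), a fold enrichment (a ratio over the local background), the −log10 of the p-value and of the q-value, and a summit. No read counts were used here, so no count model was fitted, and library depth was recovered only as background coverage from fold enrichment and p. Sequence and gene positions came from GRCm38 and GENCODE M21. Peaks were ranked by −log10 p, and each kept list was limited to its 14710 strongest peaks, the length of the shortest. A limited list measures relative, not absolute, accessibility. Intervals over 137 regions cover counting error only.

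Group means were compared by exact permutation of library labels, two-sided (labels also permuted within dox arm or medium) with Benjamini-Hochberg adjustment, and single regions with limma 3.58.1 in R 4.3.3 on log2 fold enrichment centred on each library's median. All were tested on simulated data. Replicates are labelled biological, with no note on separate cultures, so p-values measure the spread between these libraries. Pairing was checked by correlating deviations from group means over 11011 regions. Same-numbered libraries correlated at 0.165 to 0.463 in 3 comparisons, and at 0.0967 to 0.462 in DM against GM without dox. The main tests treated the libraries as unpaired in every comparison, and the replicate number entered as a block only in alternative runs.

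Named regions were the 6 with the highest mean percentile, up to 3 all-or-none regions and up to 3 past the limma threshold per comparison and direction, and those nearest to a listed gene. The members and lists were chosen with earlier results of these data known. Alternatives were list length, ranking, libraries, replicate numbers, motif form and window, distance from starts, summit overlap and, for limma, centring, pseudocount and filter.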

Additional observations from a re-analysis of the deposited data

Results flagged for a closer look

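Both libraries left out of the comparisons had peaks at MEF2 regions above the limit that a count of 0 allows (3 of 137 regions, or 2.19%). DM no dox replicate 1, with 1287 deposited peaks, had a peak at 4 of the 137 regions (2.92%, Wilson 95% interval 1.14% to 7.27%). DM +dox replicate 1, with 14236 deposited peaks, had a peak at 49 (35.8%, interval 28.2% to 44.1%), between the lowest (27.7%) and highest (48.2%) kept DM +dox library. Of all distal regions 3.12% and 40.9% had a peak in these libraries in that order. Of the distal regions without the 3 motifs 2.85% and 35.7% did, so the counts are no result about the MEF2 regions.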

How the results depend on the processing

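Differences in open share are in percentage points, and the cause of a change with a setting was not tested. The lower DM value relative to E-box regions kept its direction in every alternative run. With the replicate block it was −17.8 (exact sign-flip test, adjusted p = 0.0625), within replicate numbers 1 and 2 −19.4 and within 3 and 4 −15.7, and in all 3 it no longer passed, in designs of at most 6 pairs or 8 libraries. The block otherwise raised the limma counts to 4 for dox in DM and 11 for DM against GM with dox, and changed no other call except those of the C-to-G regions given above. With lists of 7355 peaks the dox difference in GM was −0.182, and all-or-none regions numbered 0 (dox in DM) and 1 (DM against GM without dox). With all deposited peaks, in lists of unequal length that were mostly longer with dox, the values relative to regions without motifs (−5.71 for DM, 5.78 for dox) and to AP-1 regions (−5.81 and 6.04) passed. Dox relative to E-box regions was 2.00, and all-or-none regions numbered 6 (dox in DM) and 1 (DM against GM with dox). Ranked by fold enrichment, dox in GM was −1.64, and these 2 counts were 3 and 1. With all 16 libraries the open share fell by 15.9 in DM and passed (exact permutation, adjusted p = 0.0294), and 0 regions were all-or-none for dox in DM. This run includes the quality outlier DM no dox replicate 1, whose 1287 peaks are far below the equal list length. Its peaks reached 2.92% of the MEF2 regions and 3.12% of all distal regions, so the run gives no added weight to the DM difference. Within numbers 1 and 2 the peak rank in DM against GM with dox was 1.26 percentile points, and all-or-none regions numbered 9 and 37 for dox in GM and DM, and 18 and 23 for DM against GM without and with dox. Each DM group held 1 kept library there, so a difference between single libraries sufficed. Shares of all union regions were not set beside the all-or-none counts of any alternative, so these counts are no result about the MEF2 regions. Within numbers 3 and 4 dox gave −3.65 in DM, −0.547 over both media and −0.603 in DM relative to regions without motifs, with 5 all-or-none regions for dox in each medium and 13 for DM against GM with dox. With the C-to-G decamer only, the values relative to regions without motifs were −11.7 (DM) and 12.2 (dox), relative to AP-1 regions −10.9 and 12.9, dox relative to E-box regions was 4.26, the peak rank with dox 17.6 percentile points higher, and 2 regions were all-or-none without dox between media. Over 10 kb from a start, dox gave −1.03 in GM, −0.0571 over both media and −0.120 in GM relative to regions without motifs, with 0 all-or-none regions for dox in DM. After the data were seen, the separate tests of the C-to-G regions and 2 alternatives were added. With regions in at least 2 libraries the value relative to AP-1 regions in DM was −8.45 and passed, and with ranks in lists of equal length dox in DM was −2.51. In limma, no centring gave 18 of 65 regions for dox in DM (27.7%, near the 24.7% of all regions) and 0 for DM against GM with dox, and quantile normalization and the filter on the strongest peaks 0 for the latter. Of all regions 1, 71 and 2 passed for DM against GM with dox under these settings, in that order.

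Leaving out 1 library at a time gave −0.912 to 5.78 for dox in GM (negative without GM +dox 2), −4.38 to 5.84 for dox in DM and −0.730 to 4.38 over both media (both negative without DM +dox 2), −15.5 to −10.3 for DM against GM (passed without DM +dox 2), and −8.94 to −4.65 relative to AP-1 regions (passed without DM +dox 2). All-or-none regions numbered 0 to 2 for dox in GM (2 without GM no dox 1, GM +dox 3 or GM +dox 4), 1 to 4 for dox in DM (4 without DM no dox 4 or DM +dox 2), 4 to 7 for DM against GM without dox (7 without GM no dox 3) and 0 to 7 with dox (7 without DM +dox 2, 6 without GM +dox 4). These counts, too, stand without the shares of all union regions. The limma count for DM against GM with dox was 0 to 5, in runs where 0 to 339 of all regions passed. The C-to-G calls were also lost with all deposited peaks (−6.29 for DM, 5.64 for dox), ranking by fold enrichment (−2.54 and 11.7), all 16 libraries (−10.3 and 10.2) and within replicate numbers. The remaining alternatives kept direction and side of the threshold. Within numbers 1 and 2 no test of dox in DM was possible, with 1 library a group, and the peak rank over all 16 libraries rests on 4 regions. Depth was not known as reads, so small differences at single weak peaks could not be resolved.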
